A study of Homo sapiens with 23 samples.

Results

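Pericentromeric peaks were the peaks of replication start sites and of chromatin proteins that lay within 2 Mb of the 3 Mb gap standing for the centromere in the hg19 assembly. They were chosen by position alone, on the 18 chromosomes for which the rule gives a gap. The 21 peak lists held 30995 of them among 1741457 peaks, or 1.78%, and from 419 to 4116 in a single list. In all, 30 of them touched the gap itself.

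The peaks came from HCT116, an established colon carcinoma line, and K562, an established chronic myelogenous leukemia line. The study asked how SIRT1 phosphorylated at T530 relates to replication origins. Start sites were mapped by sequencing nascent strands, short newly made DNA that survives λ-exonuclease, and chromatin binding by ChIP-seq. Each group was 1 library, so no difference below was tested against replicates, and the 95% intervals are exact and cover counting error only.

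The nascent-strand libraries of HCT116 came from a SIRT1-depleted clone, from the depleted clone rescued with T530A mutant SIRT1, from wild-type cells given 200 nM aphidicolin for 24 h and then released for 24 h, and from the depleted clone rescued with wild-type SIRT1. Each of the depleted and rescued lines was called a clone in the labels, so clone and genotype cannot be told apart, and the aphidicolin cells differed from the rescued clone in background as well as in treatment. Untreated wild-type HCT116 cells gave the ChIP libraries for SIRT1 phosphorylated at T530 (pSIRT1), MCM2 phosphorylated at S139 (pMCM2) and histone H4 acetylated at lysine 16 (H4K16ac). K562 cells were wild type throughout. Nascent strands were taken from early, middle and late S fractions, pSIRT1 ChIP from unfractionated cells, and pSIRT1 and pMCM2 ChIP from 5 fractions (G1, then early, middle and late S, then G2), separated by elutriation where the labels name a method. Sheared genomic DNA of each line, the control for peak calling, was not analysed here. Peak lists carry no expression markers, so the labelled cell lines could not be checked against them.

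Pericentromeric DNA flanks the tandem satellite repeats on which the kinetochore forms. It is rich in satellite and duplicated sequence, much of it is packed as heterochromatin, and it tends to replicate late in S phase. MCM2 is a subunit of the helicase loaded at origins before replication, SIRT1 is an NAD-dependent deacetylase whose substrates include H4K16ac, and H4K16ac is a mark of open chromatin. Because repeats can be collapsed in an assembly, reads from several copies can pile up on 1 place. Copy number, mappability and the control reads were not measured here, and their part in any value below was not tested.

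Peaks were sparse next to the gaps. On chromosomes 1, 9 and 16 no list had a peak on the long-arm side of the gap, so these windows rested on the short arm alone. Stretches without a peak of any list were taken to be mostly unassembled sequence, not a lack of peaks, which was not checked. Density was therefore counted per Mb of 100 kb bins that held a peak of any list, which came to 64.5 Mb in the windows and 2783.7 Mb elsewhere. Peaks were less dense in the windows than elsewhere in 20 of 21 lists, and the interval of the ratio lay below 1 in all 20. The median ratio was 0.776.

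Among the HCT116 nascent-strand lists, the density was 30.1 pericentromeric peaks per Mb in the depleted clone, against 38.8 elsewhere, a ratio of 0.774. It was 24.2 in the T530A rescue, against 36.8 elsewhere (ratio 0.659), and 23.5 after aphidicolin, against 34.3 elsewhere (ratio 0.684). The wild-type rescue had 17.2 pericentromeric peaks per Mb, against 26.4 elsewhere, the lowest ratio of all lists at 0.654. The shortfall near the gap was thus smaller in the depleted clone than in the other 3 HCT116 nascent-strand lists, whose intervals overlapped one another. The 3 HCT116 ChIP lists were close together, at 0.776 for pSIRT1, 0.772 for pMCM2 and 0.784 for H4K16ac.

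In K562 the nascent-strand ratio was 0.826 in early S cells, 0.809 for middle S and 0.776 for late S, and the 3 intervals overlapped. The pSIRT1 ratio was 0.879 in unfractionated cells. Across the fractions, G1 cells had 0.672, early S cells 0.753, middle S cells 1.11, late S cells 0.814 and G2 cells 0.907. By number of peaks, the pSIRT1 list of middle S was the only one in which pericentromeric peaks were denser than the rest, with 9.97 against 8.94 peaks per Mb and an interval of 1.03 to 1.21. With a limit of 5 Mb its ratio was 0.925, and without the first 500 kb 1.02. By covered length in place of number, 6 more K562 lists were above 1, and that of G2 pSIRT1, at 1.42, was above the 1.30 of middle S pSIRT1. The middle S pSIRT1 list was also short, at 25542 peaks. Like that of G2 pSIRT1, it held a decimal score where most lists hold read counts. For pMCM2, G1 cells had a ratio of 0.755, early S cells 0.752, middle S cells 0.899, late S cells 0.828 and G2 cells 0.880.

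**Figure D1:**
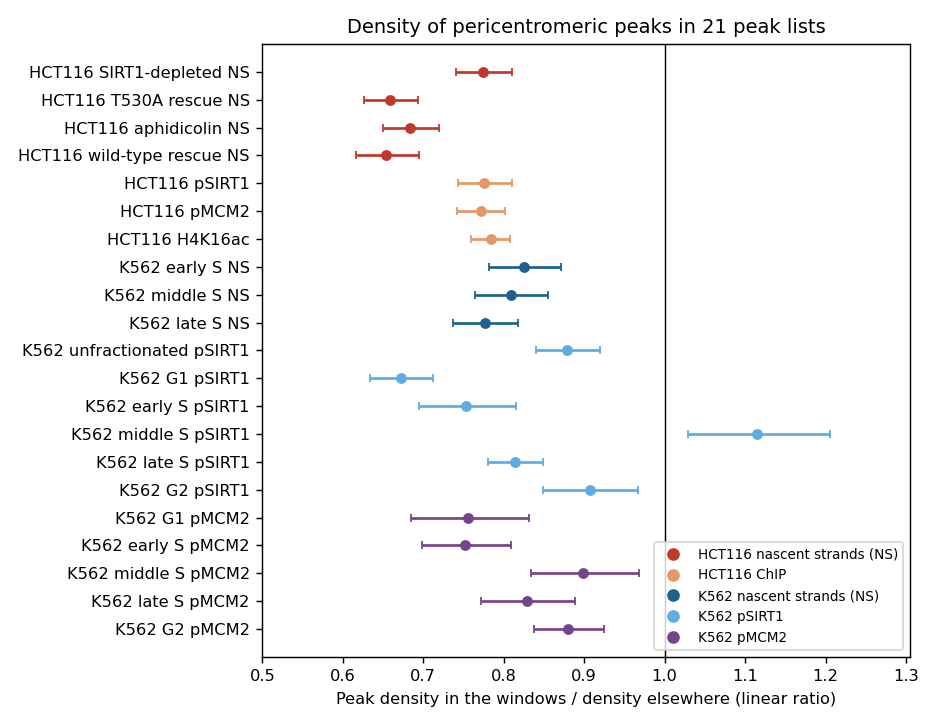
Peak density in the pericentromeric windows divided by density elsewhere (horizontal axis, linear ratio), 1 point per list with its 95% exact interval for counting error. All points lie to the left of 1 except that of K562 middle S pSIRT1 at 1.11.

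The numbers of pericentromeric peaks in the lists being compared moved with list length, but not always in step with it. The depleted clone had 1939 pericentromeric peaks and the wild-type rescue 1112, a ratio of 1.74 (interval 1.62 to 1.88), where the peaks elsewhere gave 1.47. The T530A rescue had 1564, a ratio to the wild-type rescue of 1.41 beside 1.40 elsewhere, and aphidicolin-treated cells had 1513, a ratio of 1.36 beside 1.30 elsewhere. Of these 3 intervals, that of the depleted clone alone left out the ratio found elsewhere.

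Of the K562 nascent-strand peaks, middle S had 0.906 times as many in the windows as early S, beside 0.925 times elsewhere. Late S had 1.05 times as many, beside 1.12 elsewhere. Both intervals, 0.839 to 0.979 and 0.977 to 1.13, included the ratio elsewhere. Relative to G1, pericentromeric pSIRT1 peaks numbered 0.537 times as many for early S, 0.554 for middle S, 1.92 for late S and 0.813 for G2. The corresponding ratios elsewhere were 0.479, 0.334, 1.58 and 0.603. All 4 were thus higher in the windows than elsewhere, with G1 as their common denominator. The widest gaps were those of middle S, 1.66 times, and G2, 1.35 times, against 1.12 for early S and 1.21 for late S. The middle S and G2 lists hold decimal scores and the G1 list read counts, so phase and list type cannot be told apart. All 4 intervals left out the ratio elsewhere, early S most narrowly (0.486 to 0.592). For pMCM2 the ratios to G1 were 1.78 for early S, 1.73 for middle S, 1.93 for late S and 3.95 for G2, beside 1.79, 1.45, 1.76 and 3.39 elsewhere. The intervals of middle S (1.53 to 1.95) and G2 (3.54 to 4.40) left out the ratio elsewhere, and those of early and late S included it. The G1 pMCM2 list was the shortest of the 21, with 24359 peaks.

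Median widths differed little. The median width of pericentromeric peaks equalled that of the other peaks in 15 lists, was above it in 4 and below it in 2, and lay within 10% of it in 17. Peak ends in most lists lay on a grid of 200 bp, so small differences between medians could not be seen. Among nascent strands the median was 2400 bp both in the windows and elsewhere in the aphidicolin list and those of the depleted and T530A clones, and 3700 bp against 3800 bp in the wild-type rescue. The largest difference in percent was 25%, in K562 G2 pSIRT1 and early S pMCM2, each with 1000 bp in the windows against 800 bp elsewhere. Unfractionated pSIRT1 (2000 against 1800 bp) and G2 pMCM2 (1400 against 1200 bp) differed by as many bp. Equal medians did not mean equal widths throughout. The density ratio by covered length was above that by number of peaks in every list. In K562 early S pSIRT1 it was 1.05 against 0.753, and in late S pMCM2 1.09 against 0.828, although the medians of both lists were equal.

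Scores were compared only as ranks within a list, since the lists were not on a common scale. The score was a read count per peak in 18 lists and another score of the authors in 3, and a wider peak can hold more reads. The median percentile of the pericentromeric peaks lay between 48.6 and 58.9, and that of the other peaks between 48.9 and 51.6. The windows had the higher median in 16 lists and the lower in 5. Without chromosome 20 it was higher in 10, and without the peaks within 500 kb in 6. The highest was K562 late S pMCM2, at 58.9 against 50.5. The lowest was the T530A rescue, at 48.6 against 49.8.

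The windows held more than their share of the very highest peaks. By construction about 1% of each list was in its top 1%, with ties moving that share a little. It was 0.995% in K562 early S nascent strands, 0.997% in late S nascent strands and unfractionated pSIRT1, 0.994% in early S pMCM2, 0.999% in late S pMCM2, and 1.01% in the other 3 pMCM2 lists of K562. Among pericentromeric peaks the share was above 1% in 20 lists, and its interval lay above 1% in 18. The median share was 2.22%, and 777 pericentromeric peaks were in the top 1% in all.

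In HCT116 the share was 2.22% in the depleted clone, 1.85% in the T530A rescue, 2.05% after aphidicolin and 1.44% in the wild-type rescue, whose interval of 0.825% to 2.33% included 1%. The ChIP lists had 2.14% for pSIRT1, 1.84% for pMCM2 and 1.82% for H4K16ac. In K562 the nascent strands had 2.91% in early S cells, 2.65% for middle S and 3.87% for late S. These intervals overlapped, so no order among the S fractions could be read.

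For pSIRT1 in K562 the share was 4.02% in unfractionated cells, and by fraction G1 cells had 2.07%, early S cells 0.803%, middle S cells 3.89%, late S cells 1.48% and G2 cells 1.59%. The early S list, with 5 such peaks, was the only one under 1%. With the score divided by peak width, the pSIRT1 shares were 0.947% in G1 cells, 0.622% for middle S, 0.809% for late S and 0.742% for G2, so all 5 fractions were then under 1%. For pMCM2, G1 cells had 5.73%, early S cells 4.56%, middle S cells 4.15%, late S cells 3.58% and G2 cells 3.81%. All 5 pMCM2 shares of K562 were above the 1.84% of the HCT116 pMCM2 list, and all 5 of their intervals overlapped one another. With the score divided by width, G1 cells had 1.19%, early S cells 1.74%, middle S cells 2.21%, late S cells 1.24% and G2 cells 2.66%, against 1.13% in HCT116.

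Most of this lay close to the gap. Peaks within 500 kb made up 19.9% of all pericentromeric peaks but 51.5% of those in the top 1%. The top peaks lay at a median of 496 kb from the gap, against 1099 kb for all pericentromeric peaks, and their median width was 9200 bp against 1600 bp. Shares by distance used the score as deposited, not divided by width, so the part of width in them was not tested. They overlapped a median of 14 other lists, against 6 for all pericentromeric peaks, and top peaks elsewhere overlapped a median of 15.

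By steps of 500 kb away from the gap, the share in the top 1% was 6.48%, 1.90%, 1.83% and 0.882% inside the 2 Mb limit. Beyond the limit it was 0.871%, 0.548%, 0.471% and 0.234% out to 4 Mb. Density behaved otherwise. Its median ratio over the lists was 0.622 in the first 500 kb, then 0.792, 0.898 and 0.889, and 0.978 just beyond the limit. In 19 lists the first 500 kb had fewer peaks per Mb than the 500 kb to 2 Mb range. The exceptions were K562 pSIRT1 of middle S, with 12.5 against 9.11 peaks per Mb, and of G2, with 16.1 against 14.1. Both lists hold decimal scores, unlike the other K562 lists, so phase and list type cannot be told apart in them. By covered length, the first 500 kb was above the rest of the genome in 9 lists.

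**Figure D2:**
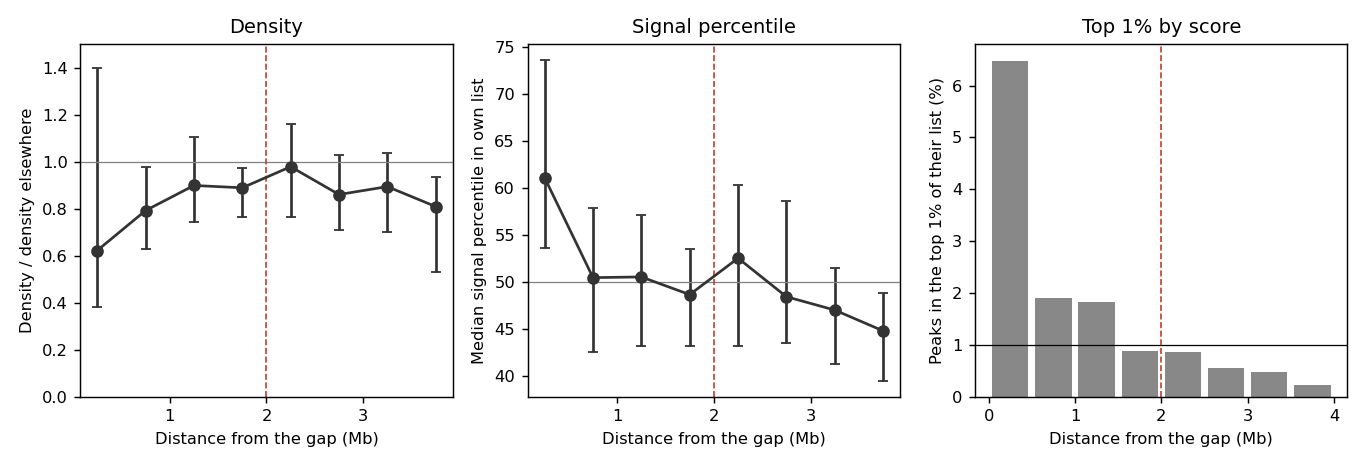
Density relative to elsewhere (left, ratio), median signal percentile (middle) and share of peaks in the top 1% of their list (right, %), in steps of 500 kb from the gap (horizontal axis, Mb). Points are the median over the 21 lists with bars from the lowest to the highest list, columns are pooled over lists, and the dashed line is the 2 Mb limit. The first step has the lowest density inside the limit, the highest percentile and a share of 6.48% in the top 1%.

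Within 500 kb the median percentile was above that of the rest of the genome in all 21 lists, from 53.6 in early S pSIRT1 to 73.6 in unfractionated K562 pSIRT1. The peaks there were wider than the rest in 18 lists and of equal median width in 3. The top 1% share was above 1% in all 21 lists, from 2.04% in early S pSIRT1 to 15.4% in G1 pMCM2, where it stood for 14 of 91 peaks. The share in early S pSIRT1 stood for 3 of 147 peaks. Its interval (0.423% to 5.85%) and that of G2 pSIRT1 (0.839% to 4.88%) included 1%. Among HCT116 nascent strands it was 6.25% in the depleted clone, 6.93% in the T530A rescue, 6.69% after aphidicolin and 5.03% in the wild-type rescue. From 500 kb to 2 Mb the percentile was above the rest in only 6 lists, and the top 1% share was above 1% in 17.

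Just inside and just outside the 2 Mb limit, width and top 1% share were close, and the percentile was lower inside. The 1778 peaks between 1900 and 2000 kb from the gap had a median percentile of 47.8, a median width of 1599 bp and a top 1% share of 0.619%. The 1804 peaks between 2000 and 2100 kb had 51.1, 1600 bp and 0.610%.

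**Figure D3:**
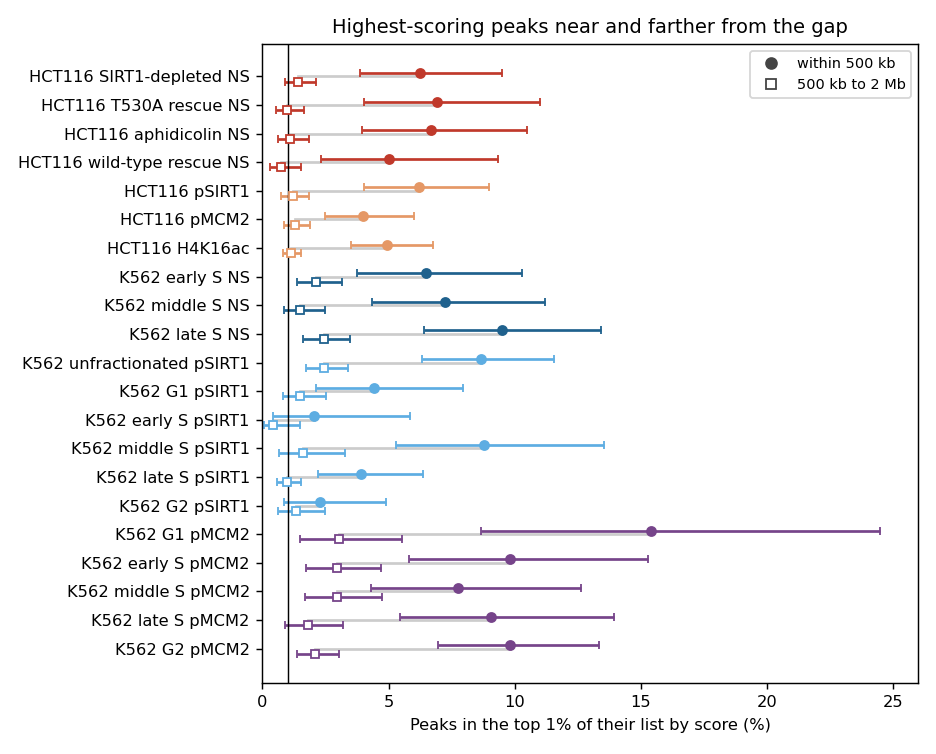
Share of peaks in the top 1% of their list by score (horizontal axis, %), for peaks within 500 kb of the gap (filled circles) and from 500 kb to 2 Mb (open squares), with 95% exact intervals. The vertical line marks 1%. The filled circle lies right of the open square in every list.

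The windows of different chromosomes were unlike. Those of chromosomes 20, 2 and 17 were denser than the rest of the list in most lists, with median ratios of 1.67, 1.45 and 1.30, above 1 in 18, 18 and 17 lists. Those of chromosomes 3, 5, 6, 11 and 12 were sparse, with median ratios of 0.191, 0.294, 0.292, 0.307 and 0.471. Chromosomes 3, 5, 11 and 12 were under 1 in all 21 lists, and chromosome 6 in 20.

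The K562 nascent strands stood apart from HCT116 on 8 chromosomes, where the range of their 3 lists did not overlap that of the 7 HCT116 lists. The range of the 11 K562 ChIP lists overlapped that of HCT116 on all 8. The K562 nascent strands lay higher than HCT116 on 5 of these. On chromosome 1 they had ratios of 2.63 to 2.84, against 0.710 to 1.41 in HCT116, and on chromosome 21 ratios of 1.18 to 1.25, against 0.359 to 0.815. They were higher too on chromosomes 5, 6 and 11, where most lists were under 1. They lay lower on chromosome 20, at 0.736 to 0.901 against 1.35 to 2.15, on chromosome 17, at 0.590 to 0.990 against 1.19 to 1.70, and on chromosome 4, at 0.415 to 0.520 against 0.698 to 1.10. The K562 ChIP lists ran from 1.34 to 2.49 on chromosome 20, from 0.624 to 2.16 on chromosome 1, from 0.109 to 0.438 on chromosome 5 and from 0.177 to 0.438 on chromosome 6, and did not reach the nascent strands of the same line on these 4.

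**Figure D4:**
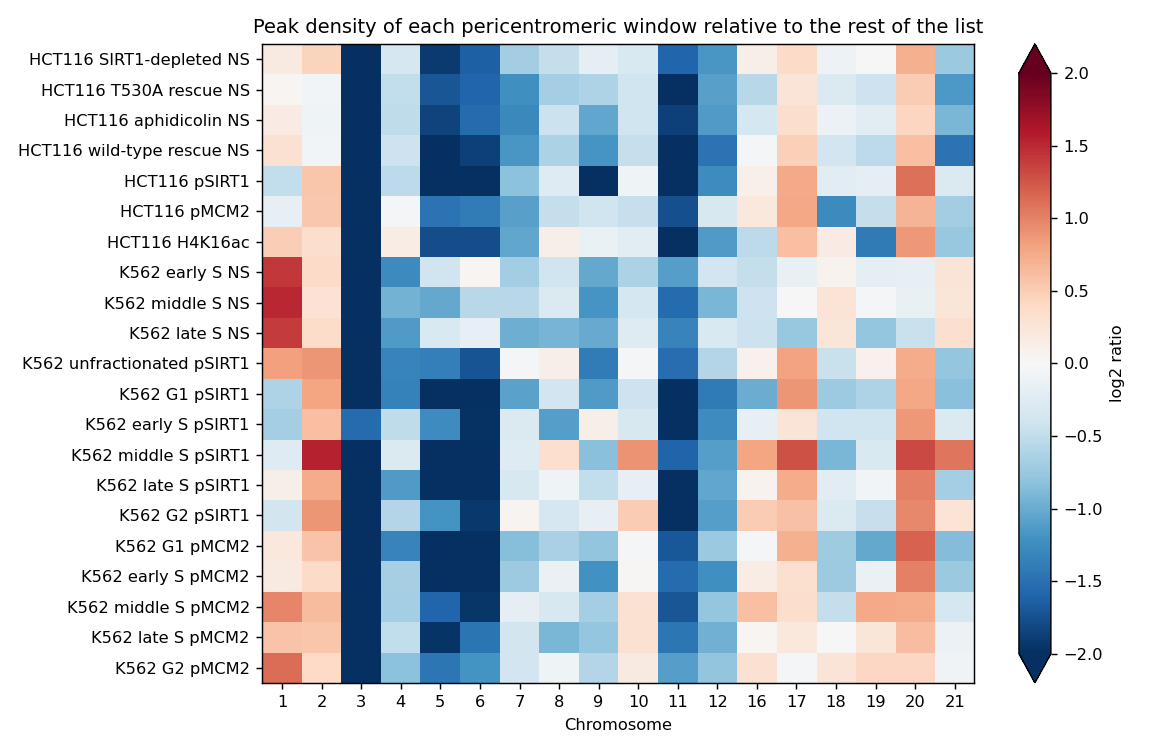
Log2 of the density of each chromosome's pericentromeric window over the density of the rest of the list, for 18 chromosomes (horizontal) and 21 lists (vertical), with red above and blue below the rest and the colour scale ending at 2 in either direction. Chromosomes 3, 5, 6 and 11 are blue in nearly every list, and chromosome 20 is red except in the K562 nascent strands.

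The top peaks followed the order of density only in part. Chromosome 21 held 17.9% of them, with 5.57% of all pericentromeric peaks. Chromosome 4 held 95, or 12.2% with 5.66% of all, and chromosome 16 held 59, or 7.59% with 3.76%. Chromosomes 17 and 2, also dense, lay nearer their shares, with 108 (13.9% with 11.4%) and 84 (10.8% with 8.87%). Chromosome 20, the densest, held 48, or 6.18% with 12.5% of all.

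A few places carried the highest scores of many lists. A pericentromeric peak was the highest of the whole list in 4 lists and among the 10 highest in 16. The region chr4:49255401-49338800 (hg19), 321 kb from the gap on the short arm, had a peak in 20 lists. That peak was in the top 1% of 18 lists and among the 3 highest of 12.

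At this region the highest nascent-strand peak in HCT116 had 41036 reads in the depleted clone (rank 3), 29297 in the T530A rescue (rank 2), 27814 after aphidicolin (rank 2) and 25981 in the wild-type rescue (rank 2). K562 nascent strands had no peak there in early S, 25891 reads and rank 1 for middle S, and 237 reads and rank 2331 for late S. The peak thus topped the middle S list, was absent in early S and stood at percentile 97.1 in late S. These counts are not scaled for depth, which is unknown. For pMCM2 in K562, G1 cells had it at rank 5, early S cells at 2, middle S cells at 1, late S cells at 2 and G2 cells at 2, and HCT116 had it at rank 2. For pSIRT1 the ranks ran from 1, in unfractionated and late S K562 cells, to 591 in G2 cells.

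The nearby region chr4:49210401-49234800 was also found in 20 lists, and in each K562 nascent-strand list it was high. It had 2266 reads and rank 11 in early S cells, 2524 and rank 14 for middle S, and 2027 and rank 39 for late S. The absence of the first region in early S thus did not extend to its neighbour.

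On chromosome 21, chr21:9693601-9706600 had a peak in 17 lists, among the 10 highest in 9. It ranked 8 in the depleted clone and 3 in each of the T530A, aphidicolin and wild-type rescue lists, with 14830, 12292, 15266 and 10256 reads. None of the 3 K562 nascent-strand lists had a peak there. The region chr21:11068201-11153200, 135 kb from the gap, was in the top 1% of all 17 lists that held it. K562 nascent strands had 11674 reads there in late S (rank 2), 5977 in middle S (rank 4) and no peak in early S. Among HCT116 nascent strands only the depleted clone had a peak, with 4949 reads (rank 45).

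The region chr16:33947801-33966399 was in the top 1% of all 14 lists that held it. Of the 7 nascent-strand lists only that of the depleted clone held it, with 17154 reads and rank 7. The highest pericentromeric peak of the depleted clone, at chr10:42596601-42604000 with 42084 reads and rank 2, was in none of the other nascent-strand lists. The other 4 lists with a peak there were HCT116 pSIRT1 (542 reads), H4K16ac (score 2078), and K562 pSIRT1 of middle S and G2. At chr18:18510801-18523200, 49.8 kb from the gap, K562 pMCM2 had no peak in G1 or early S cells, then 4155 reads for middle S (rank 4), 1935 for late S (rank 5) and 8001 for G2 (rank 4).

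**Figure D5:**
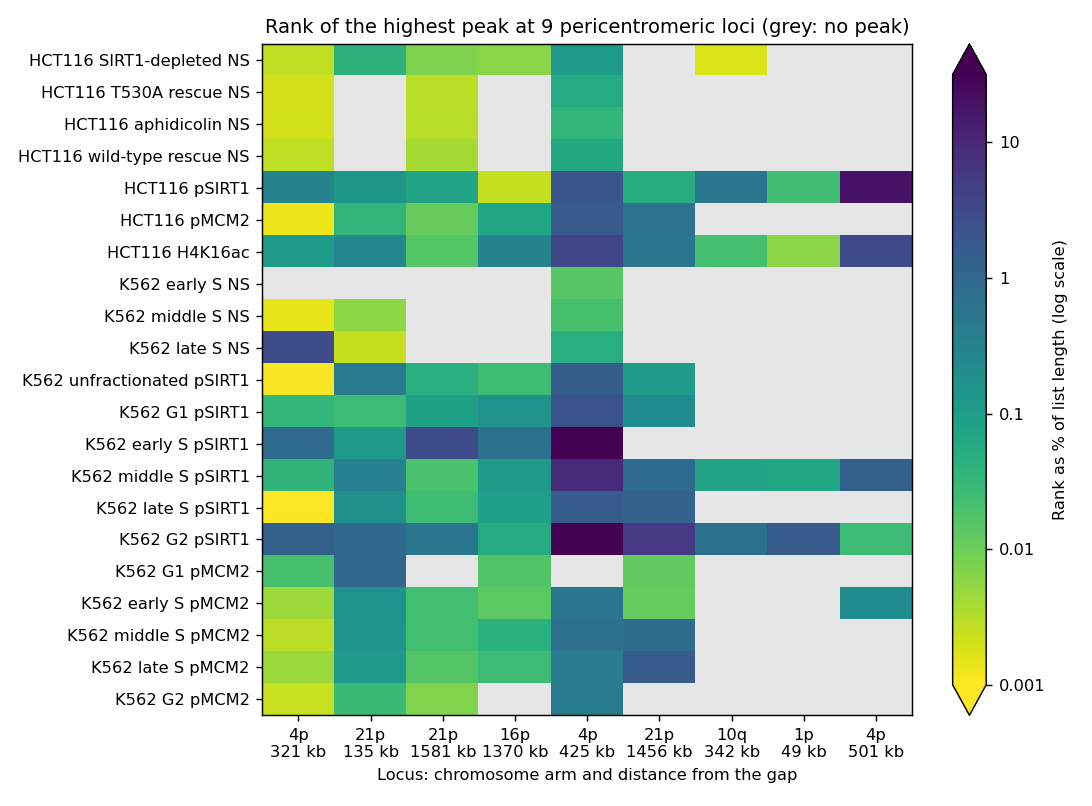
Rank of the highest peak at 9 pericentromeric regions as a percentage of list length (colour, log scale, yellow highest), with regions named by chromosome arm and distance from the gap (horizontal) and lists down the side. Grey means no peak. The region at 4p, 321 kb is filled in all lists but K562 early S nascent strands.

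Several regions were held by the same 4 lists. HCT116 pSIRT1, HCT116 H4K16ac and K562 pSIRT1 of middle S and G2 were the only lists with a peak at chr1:121478471-121485576 and at chr10:42367401-42400800. All 4 were also among the 5 lists at chr10:42596601-42604000 and at chr4:49093401-49158600, the 6 at chr7:61967201-61973200 and the 7 at chr18:18510801-18523200. At chr10:42367401-42400800 the values were 1510 reads (rank 21), score 873 (rank 425), score 6530 (rank 10) and score 13417 (rank 14).

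These 4 lists were also the 4 whose deposited layout differed from that of the other 17. HCT116 pSIRT1 has 4 columns, H4K16ac 9 columns, and the other pair decimal scores. Of the 10 kb bins within 500 kb of the gap that held a peak of all 4 lists, 25 of 114 held peaks of at most 2 of the other 17, or 21.9% (interval 14.7% to 30.6%). From 500 kb to 2 Mb it was 6 of 241 bins, or 2.49%, and elsewhere 28 of 14584, or 0.192%. Over the whole genome the share was 0.395%. The split by layout was made after the values of these regions had been seen. Such regions are among the bins counted, so these shares in part restate the choice. How these lists were called or filtered is unknown here, so layout and biology cannot be told apart at these regions.

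Sharing among lists was about as common in the windows as elsewhere. The share of peaks that overlapped at least 10 of the other 20 lists by 1 bp or more was higher in the windows in 10 lists and lower in 11. With a limit of 1 Mb it was higher in 16 lists, and with 5 Mb in 2. Over all lists together 28.7% of peaks passed this rule. Below, the share in the windows is set beside that of the whole list.

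In HCT116 nascent strands it was 30.1% beside 31.2% for the depleted clone, 32.5% beside 30.7% for the T530A rescue, 30.5% beside 30.2% after aphidicolin, and 41.1% beside 38.5% for the wild-type rescue. The HCT116 ChIP lists had 27.2% beside 27.3% for pSIRT1, 22.1% beside 20.6% for pMCM2 and 15.7% beside 15.4% for H4K16ac. In these 7 lists the windows stayed within a few percentage points of their list.

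The K562 nascent strands had 19.6% beside 21% for early S, 24.9% beside 26.8% for middle S and 21.7% beside 20.8% for late S. For pSIRT1 it was 26.7% beside 28.9% in unfractionated cells, 39.7% beside 35.5% in G1 cells, 43.5% beside 39.5% for early S, 52.9% beside 62.8% for middle S, 28.4% beside 29.7% for late S and 38.6% beside 38.8% for G2. For pMCM2 it was 48.2% beside 46.9% in G1 cells, 38.1% beside 36.2% for early S, 42.7% beside 49.2% for middle S, 38.3% beside 39.2% for late S and 27.8% beside 31.2% for G2. The middle S lists of both proteins thus lay furthest below their own lists.

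Peaks that overlapped all 20 other lists were few, but their share was higher in the windows in each of the 21 lists. In HCT116 nascent strands it was 0.516% beside 0.35% of the whole list for the depleted clone, 0.639% beside 0.341% for the T530A rescue, 0.727% beside 0.331% after aphidicolin and 1.17% beside 0.536% for the wild-type rescue. The HCT116 ChIP lists had 0.465% beside 0.249% for pSIRT1, 0.263% beside 0.155% for pMCM2 and 0.243% beside 0.146% for H4K16ac. The K562 nascent strands had 0.799% beside 0.396% for early S, 0.722% beside 0.487% for middle S and 0.691% beside 0.348% for late S.

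In K562 pSIRT1 the share was 0.365% beside 0.261% of the list in unfractionated cells, 0.603% beside 0.348% in G1 cells, 1.28% beside 0.576% for early S, 1.56% beside 0.955% for middle S, 0.404% beside 0.233% for late S and 0.742% beside 0.48% for G2. In pMCM2 it was 1.91% beside 0.985% in G1 cells, 0.804% beside 0.501% for early S, 1.24% beside 0.748% for middle S, 0.865% beside 0.501% for late S and 0.544% beside 0.315% for G2. These rested on 6 to 13 pericentromeric peaks per list, at much the same places. Counted instead as 10 kb bins that held a peak of all 21 lists, the windows had 12 of 4697 (0.255%, interval 0.132% to 0.446%) and the rest of the genome 498 of 230252 (0.216%), with 0.217% of all occupied bins. The interval included the value elsewhere. With every list shortened to its 24359 highest peaks the shares were 0.0377% against 0.0908%. The windows then rested on fewer than the 12 bins above, so no order could be read.

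The 12 bins were single and lay on 8 chromosomes, 4 of them on chromosome 17. The one with the highest median percentile, 98.2, was chr17:21550001-21560000, where 10 lists had a peak in their top 1%. It was followed by chr20:30580001-30590000 at 97.0 and chr7:57630001-57640000 at 96.7. None of the regions of chromosomes 4, 10, 16 and 21 described above was held by all 21 lists.

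Of 420 ordered pairs of lists, pericentromeric peaks overlapped more often than the rest in 211. The 2 shares lay within 5 percentage points of each other in 342 pairs and over 10 points apart in 12. Peaks of the depleted clone overlapped those of the wild-type rescue in 44.6% of cases in the windows against 50.9% elsewhere, with 50.8% of the whole list. Wild-type rescue peaks overlapped those of the depleted clone in 70.9% against 66.8% elsewhere, with 66.8% of the whole list. The shared part in the windows was thus smaller for the depleted clone and larger for the wild-type rescue. Both shares depend on the numbers of peaks, so this in part restates the larger number in the depleted clone.

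The pSIRT1 peaks of HCT116 overlapped pMCM2 peaks in 53.0% of cases in the windows and 53.1% elsewhere. In K562 the pSIRT1 peaks of middle S overlapped those of G1 in 59.3% of cases in the windows against 76.1% elsewhere, with 75.7% of the whole list. Taken the other way, G1 peaks overlapped those of middle S in 34.5% of cases in the windows against 27.0% elsewhere, with 27.2% of the whole list, so the direction depended on which list was counted. The middle S list holds decimal scores and the G1 list read counts, so phase and list type cannot be told apart here either. The nascent-strand peaks of K562 middle S overlapped those of early S in 64.0% against 58.5% elsewhere, with 58.6% of the whole list. Those of late S overlapped those of early S in 58.6% against 53.5% elsewhere, with 53.6% of the whole list. In the other direction, early S nascent-strand peaks also overlapped more in the windows, in 57.5% against 54.6% for middle S and in 62.0% against 59.7% for late S.

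Pooled over the lists, the top peaks were less widely shared in the windows than elsewhere. Of the pericentromeric peaks in the top 1%, 75.5% overlapped at least 10 other lists, against 91.8% of the top peaks elsewhere.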

How the data were processed

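Coordinates are on hg19. MACS and SICER are named in the submitters' processing notes, with no version. The aligner, settings, filters and library depths are not given in the sources used. In 18 lists the deposited value per region is a whole number, read here as a read count, with no scaling between libraries. In the middle S and G2 pSIRT1 lists of K562 it is a deposited decimal score. The H4K16ac list has the deposited layout of MACS output, with a score, a fold enrichment ratio and −log10 p and q values, of which the score was used. These units were inferred from values and layout.

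Overlapping peaks of a list were merged and chromosomes 1 to 22 and X kept. Distance was measured from the nearer peak end to the gap. Percentiles and the top 1% are ranks within a list. Intervals are exact Clopper-Pearson intervals at 95%. The design implied no test, since each group had 1 library. Regions were named by rule: the highest pericentromeric peak of each list, the bins held by all lists, and the highest peak of a list missing from its compared list. The members, lists and regions were chosen with earlier results of these data known. No genome sequence was used here. Alternatives changed the distance, the chromosomes, merging, the length base, the score threshold and the overlap. The overlap and density calculations were tested on deposited peak lists with peaks planted or removed in known shares. Python 3.11.15, numpy 2.4.6, pandas 2.3.3, scipy 1.17.1 and matplotlib 3.10.9 were used.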

Additional observations from a re-analysis of the deposited data

How the results depend on the processing

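The number of lists less dense in the windows was 20 or 21 under the alternatives, 18 of 18 among read-count lists, and 14 when covered length replaced peak number, where K562 pSIRT1 of G2 (1.42), unfractionated cells (1.12) and early S (1.05) and pMCM2 of late S (1.09), G2 (1.07) and middle S (1.04) turned above 1. Lists with a top 1% share above 1% numbered 16 to 20 (17 of 18 among read-count lists), and the depleted to wild-type rescue ratio ran from 1.62 to 1.83. The 10 lists with more sharing became 16 at 1 Mb, 2 at 5 Mb and 6 without chromosome 20. The 16 lists with a higher percentile became 5 at 5 Mb, 10 without chromosome 20 and 6 without peaks within 500 kb, an alternative chosen after seeing the data, as were those on read-count lists for density and sharing and those without chromosomes 4 and 21. The density ratio of K562 middle S pSIRT1 was 0.925 at 5 Mb. The top 1% share turned under 1% in the T530A rescue (0.806% at 5 Mb and 0.975% without peaks within 500 kb) and after aphidicolin (0.861% at 5 Mb), in the wild-type rescue (0.673% and 0.750%) and in K562 late S pSIRT1 (0.948% and 0.977%) under the same pair of settings as T530A. It did so too in K562 pSIRT1 of G1 (0.947%), G2 (0.742%), middle S (0.622%) and late S (0.809%) with the score divided by width; the cause was not tested. Other values without a test moved in 259 cases and stayed in 459. No paired analysis was possible because each group had 1 library and the labels give no replicate numbers. Depth is unknown, so an absent peak is not shown to be an absent signal.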
